A study of Homo sapiens with 8 samples.

Results

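The levels of 8 genes that limit or feed the peroxidation of membrane lipids were followed in human glioblastoma cells with or without thioredoxin reductase 1 (TrxR1): *GPX1*, *GPX4*, *GPX8*, *AIFM2*, *DHODH*, *ACSL3*, *ACSL4* and *LPCAT3*. They were taken by symbol from an expression table of 13730 genes, and all 8 were found. The cells were LN229-TAZ(4SA), a derivative of the glioblastoma line LN229 that is named for a TAZ(4SA) construct. RNA-seq was done on TrxR1 knockout (KO) and control (EV) cells, each kept in regular medium (DMEM with 10% fetal bovine serum) or in glucose-deprived medium (Glu-), so that EV regular, KO regular, EV deprived and KO deprived form 4 groups of 2 libraries. The time in each medium and the number of knockout clones are not given in the sources used here. A difference between KO and EV cells therefore cannot be told apart from a difference between the lines.

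Ferroptosis is a form of cell death in which iron drives a chain of peroxidation through polyunsaturated phospholipids of membranes. *ACSL4* activates polyunsaturated fatty acids and *LPCAT3* places them into phospholipids, which supplies the substrate, whereas *ACSL3* activates monounsaturated fatty acids, which resist oxidation. *GPX4* reduces lipid peroxides with glutathione, and *AIFM2* (FSP1) at the plasma membrane and *DHODH* in mitochondria regenerate reduced coenzyme Q, a radical trap. Glucose starvation with high cystine uptake is better known for another death, disulfidptosis, in which the cell runs short of NADPH. The question here was how the mRNAs of the lipid peroxide system stood under the 2 stresses, alone and combined.

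Levels are given in CPM as deposited, the reads of a gene divided by a scaling size of its library, without correction for gene length. Scaled totals over the table are not equal between libraries, so the scaling is not by the table's read total alone. The part of this scaling in small differences between groups was not tested beyond the refit with median-of-ratios scaling. The libraries held 70083018 to 107229069 reads in the table, and the members were covered by 877 to 25748 reads per library. *TXNRD1*, the gene of TrxR1, was at 262 ± 1.5 CPM in EV regular against 247 ± 3.3 CPM in KO regular libraries (SD, n = 2; log2 -0.08, limma adjusted p = 0.19), and at 501 ± 11 against 361 ± 14 CPM in deprived medium (-0.47, limma adjusted p = 2.0e-05). The mRNA was thus not lost in KO cells, and since the edited site is not given in the sources used here, its level is no check of the knockout label. *TXNIP*, which follows glucose, was at 86.3 ± 1.1 CPM in EV regular and 10.5 ± 0.80 CPM in EV deprived cells. The table heads the columns taken here as deprived with GlcN, letters that are also used for glucosamine, a sugar the labels do not mention, so every value for deprived medium rests on that reading. All 6 markers of a mesenchymal glioblastoma line were in the table (*VIM* at 2897 to 3696 CPM), while *GFAP*, the defining astrocyte marker, was at 0.675 to 1.41 CPM and *AQP4* was not listed. The 6 include *WWTR1* (306 to 362 CPM), the gene of TAZ, whose reads could come in part from the construct. Of other cell types, the summed level was 0.97 to 1.95 CPM for microglia and macrophages (2 of 4 markers listed), and no endothelial marker was listed (0 of 3). The neuronal sum (4 of 4) was 37.0 to 41.1 CPM in regular and 70.5 to 74.2 CPM in deprived medium. This sum moved with the medium, mostly through *SYT1*, which spanned 14.7 to 51.0 CPM over the libraries. *GAD1* spanned 17.1 to 19.7, *SNAP25* 3.13 to 4.60 and *RBFOX3* 0.22 to 1.09 CPM. The part of the sum in the differences between media was not tested. As the samples are bulk RNA, fewer cells with an mRNA and less of it per cell cannot be told apart.

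The 3 glutathione peroxidases differ at the codon of the catalytic residue, which is shown here because it ties *GPX1* and *GPX4*, but not *GPX8*, to selenium supply. Each line gives 27 coding bases, 5′ to 3′, from GENCODE release 29 transcripts, with that codon in capitals.
GPX1: gtggcgtccctcTGAggcaccacggtc
GPX4: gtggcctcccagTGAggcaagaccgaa
GPX8: gtggccagtgacTGCcaactcacagac
In *GPX1* (codon 49) and *GPX4* (codon 73) the annotation marks this TGA as a selenocysteine codon. In *GPX8* the matching codon 79, placed by the best match of the encoded residues (4 of 9 shared with *GPX4*), is TGC, a cysteine codon. Selenoprotein mRNAs are read through the TGA only when selenocysteine is supplied.

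Promoter windows of RefSeq (GRCh38.p14, 250 bases before to 50 after a start) were scanned on both strands for 6 motifs, in 10 windows of the 8 genes. *AIFM2* and *GPX8* are printed up to the start because *AIFM2* was the one member higher in KO cells in both media and *GPX8* rose most under deprivation. The capitals mark the antioxidant response element core TGACNNNGC in *AIFM2* (chr10:70132826-70133075, minus strand) and the C/EBP-ATF response element TGATGNAA in *GPX8* (chr5:55159921-55160170, plus strand), both matched on the strand opposite to the one printed.
AIFM2: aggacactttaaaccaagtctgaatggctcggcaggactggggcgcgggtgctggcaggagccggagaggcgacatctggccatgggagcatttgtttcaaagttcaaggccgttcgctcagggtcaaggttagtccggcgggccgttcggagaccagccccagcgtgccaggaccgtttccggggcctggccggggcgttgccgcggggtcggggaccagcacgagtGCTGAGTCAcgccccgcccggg
GPX8: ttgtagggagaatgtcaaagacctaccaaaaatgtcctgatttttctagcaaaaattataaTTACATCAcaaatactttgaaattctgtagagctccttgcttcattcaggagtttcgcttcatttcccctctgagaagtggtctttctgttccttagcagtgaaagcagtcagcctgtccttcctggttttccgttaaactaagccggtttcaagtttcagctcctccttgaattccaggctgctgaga
The antioxidant element core began at position -22 from the *AIFM2* start and was found in 1 of the 10 windows, against 13.3% of 35116 promoter windows of the genome. It overlapped a match to the AP-1 element TGANTCA (1 of 10 windows, 7.71% of all). The C/EBP-ATF element began at position -189 in *GPX8* and was also found in 1 of 10 windows, against 3.62% of all. The CCAAT box CCAAT was found in 5 windows (34.6% of all), in *GPX4*, *DHODH*, *ACSL3* and *LPCAT3*, and CACGTG, the E-box that glucose-sensing factors can bind, in 2 (7.26% of all), in *GPX1* and *DHODH*. The *GPX4* windows with a CCAAT box overlap and hold the same matches, so the count of 5 includes the same sites more than once. The sterol regulatory element TCACNCCAC was in 0 of 10 windows (1.13% of all). These matches are descriptions of the letters and show no binding. The map of motif matches shows their places.

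**Figure D1:**
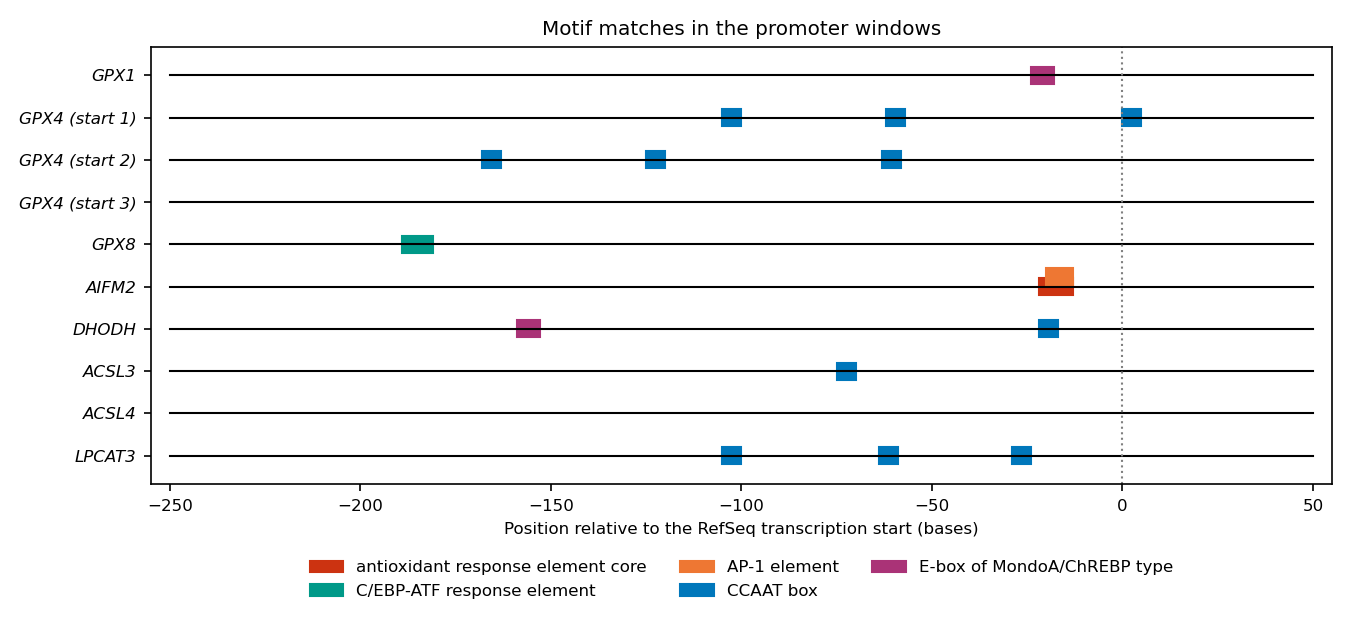
Matches in the promoter windows of the 8 genes, with 3 annotated starts for GPX4, to the 5 motifs found of the 6 sought. The x axis is the distance in bases from the RefSeq transcription start, and each coloured box is a match on either strand. The antioxidant element core and the overlapping AP-1 element appear in AIFM2 alone, the former at position -22.

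Fewer of these mRNAs differed between KO and EV cells than between media, as also held for all genes tested. In regular medium *AIFM2* rose and *ACSL3* fell in KO cells, 1 member up and 1 down of 8, where 3.87% of the 13057 genes tested rose and 3.38% fell (7.25% called in all). In glucose-deprived medium *AIFM2* rose and *GPX8* fell, again 1 and 1 of 8, where 9.04% of genes rose and 10.6% fell (19.6% in all). Glucose deprivation raised 4 and lowered 3 of the 8 genes in EV cells, where 37.5% of genes rose and 38.7% fell (76.2% in all). In KO cells it also raised 4 and lowered 3, against 36.5% and 36.8% of genes (73.3% in all), so 7 of 8 members moved in each line where about as large a share of all genes did. All 8 members passed the filter on low levels. A gene was called when its adjusted p from limma, Benjamini-Hochberg over all genes tested, was under 0.05. The members' median log2 difference was -0.03 and -0.01 for the knockout in regular and deprived medium and 0.11 and 0.15 for deprivation in EV and KO cells, beside -0.003, -0.006, -0.01 and -0.002 over all genes tested.

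**Figure D2:**
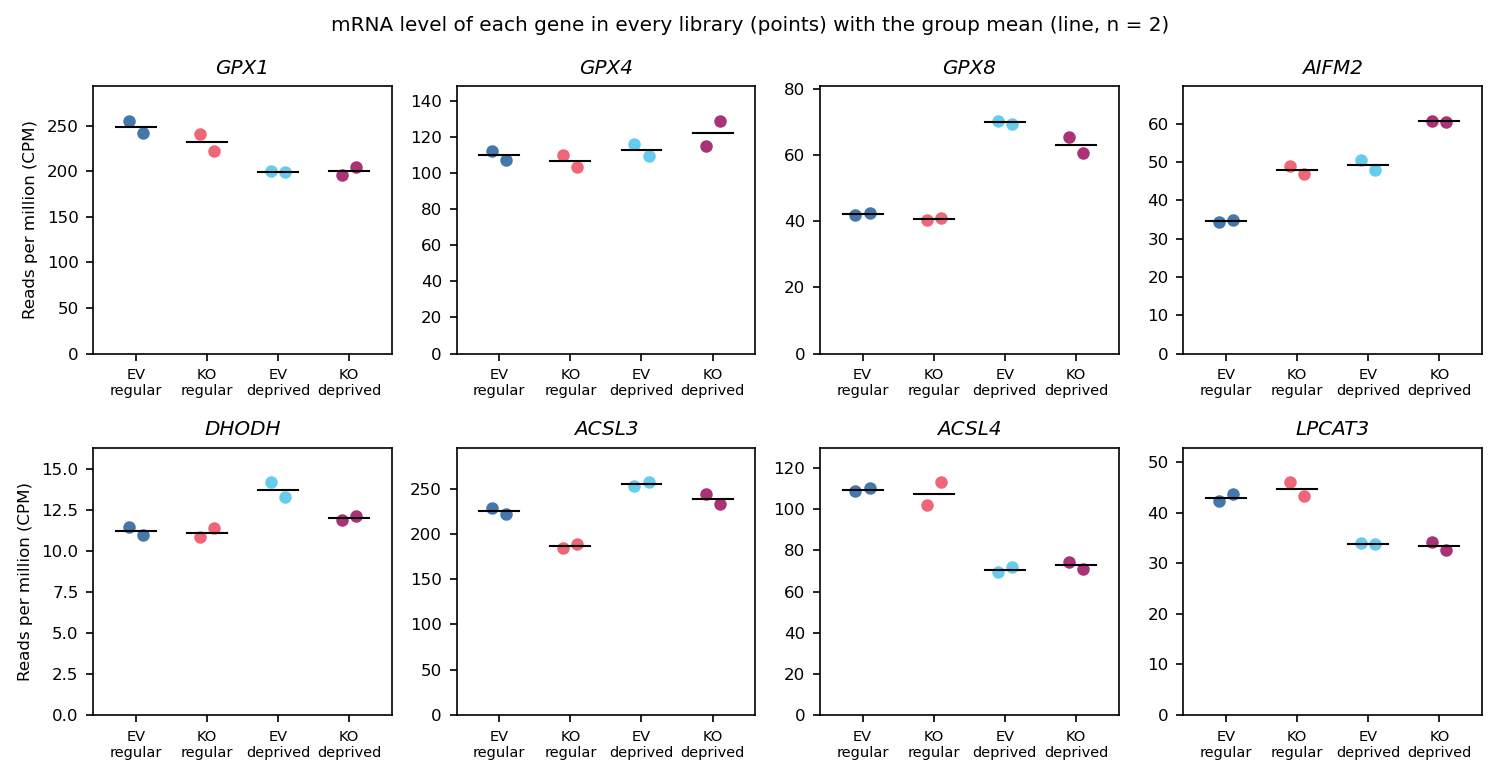
mRNA level in CPM (y axis, from 0) of the 8 genes in each of the 4 groups (x axis); points are single libraries and lines are means of 2. AIFM2 is lowest in EV regular (34.4 and 35.0 CPM) and highest in KO deprived cells (60.4 and 60.7 CPM), while ACSL4 and LPCAT3 separate by medium and not by knockout.

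*AIFM2* encodes a flavoprotein that reduces coenzyme Q at the plasma membrane and protects cells whose GPX4 is lost (Entrez 84883, GRCh38 chromosome 10, 70098223 to 70132934, minus strand). It stood at 34.4 and 35.0 CPM in EV regular, 49.0 and 46.8 in KO regular, 50.4 and 47.8 in EV deprived, and 60.7 and 60.4 in KO deprived cells. The libraries of KO regular and EV deprived cells lay within the same range, EV regular below and KO deprived above them, with no overlap to either. The knockout raised it 1.38-fold in regular medium (log2 0.47 ± 0.043 (SE), limma adjusted p = 1.8e-04) and 1.23-fold in deprived medium (0.30 ± 0.043, limma adjusted p = 0.0012). Deprivation raised it 1.42-fold in EV cells (0.50 ± 0.043, limma adjusted p = 1.6e-06) and 1.26-fold in KO cells (0.34 ± 0.043, limma adjusted p = 3.6e-05). The interaction was -0.16 ± 0.061 (limma adjusted p = 0.14), so a difference of the knockout effect between media was not established. Each of the 4 rises was called under all 13 alternative settings.

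*DHODH*, an enzyme of pyrimidine synthesis in the inner mitochondrial membrane that passes electrons to coenzyme Q (Entrez 1723, chromosome 16, 72008588 to 72027664, plus strand), was the least abundant member. Its levels were 11.5 and 10.98 CPM in EV regular, 10.8 and 11.4 in KO regular, 14.2 and 13.3 in EV deprived, and 11.9 and 12.1 in KO deprived cells. The EV deprived libraries were the highest and overlapped no others. Deprivation raised it in EV cells (log2 0.29 ± 0.061, limma adjusted p = 0.0014), whereas the value in KO cells was 0.11 ± 0.061 (limma adjusted p = 0.12). The knockout changed the level by -0.19 ± 0.061 in deprived medium, just short of a call (limma adjusted p = 0.052), and by -0.015 in regular medium (limma adjusted p = 0.91). The difference in deprived medium was called without KO regular a (limma adjusted p = 0.045) or b (0.046) and with precision weights from the reads (0.046). The 2 deprivation values were not shown to differ (interaction -0.18 ± 0.087, limma adjusted p = 0.24).

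*GPX4*, the peroxidase that acts on phospholipid peroxides inside membranes (Entrez 2879, chromosome 19, 1103926 to 1106791, plus strand), had the smallest ratio of highest to lowest group mean of the 8, 1.14. Its levels were 112 and 107 CPM in EV regular, 109.9 and 103 in KO regular, 116 and 109 in EV deprived, and 115 and 129 in KO deprived cells. The ranges of the 2 lines overlapped in both media. The knockout changed the level by -0.04 ± 0.057 in regular medium (95% interval -0.17 to 0.09, limma adjusted p = 0.70) and by 0.11 ± 0.057 in deprived medium (-0.01 to 0.24, limma adjusted p = 0.20). The latter was called without KO deprived a (0.19, limma adjusted p = 0.032). Deprivation raised it in KO cells by 0.19 ± 0.057 (limma adjusted p = 0.011), a call that ended without KO regular b (limma adjusted p = 0.075) or KO deprived b (0.092), and in EV cells the value was 0.04 (limma adjusted p = 0.55).

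*GPX1*, the abundant cytosolic peroxidase for hydrogen peroxide and a selenoprotein sensitive to selenium supply (Entrez 2876, chromosome 3, 49357171 to 49358600, minus strand, typed as a polymorphic pseudogene in GENCODE 29), fell with deprivation. It stood at 255 and 242 CPM in EV regular, 241 and 223 in KO regular, 200.5 and 199 in EV deprived, and 195 and 204 in KO deprived cells. All 4 deprived libraries lay below all 4 in regular medium. The fall was -0.32 ± 0.045 in EV cells (limma adjusted p = 7.4e-05) and -0.21 ± 0.045 in KO cells (limma adjusted p = 0.0014). KO and EV cells differed by -0.10 in regular medium (95% interval -0.20 to -0.003, limma adjusted p = 0.20) and by 0.001 in deprived medium (-0.098 to 0.10, limma adjusted p = 0.99). The annotation holds 2 processed pseudogenes, *GPX1P1* and *GPX1P2*, which are not listed in the table, so the value of *GPX1* is uncertain by what reads such copies share with it.

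*GPX8*, a peroxidase anchored in the endoplasmic reticulum that uses the peroxide made during oxidative folding (Entrez 493869, chromosome 5, 55160118 to 55167071, plus strand), rose the most of the members under deprivation. Its levels were 41.9 and 42.5 CPM in EV regular, 40.3 and 41.0 in KO regular, 70.3 and 69.5 in EV deprived, and 65.3 and 60.5 in KO deprived cells. The media did not overlap, and in deprived medium the KO libraries lay below the EV libraries. Deprivation raised it 1.65-fold in EV cells (log2 0.73 ± 0.044, limma adjusted p = 1.1e-07) and 1.55-fold in KO cells (0.63 ± 0.044, limma adjusted p = 3.6e-07). The knockout lowered it in deprived medium by 0.15 on the log2 scale (-0.15 ± 0.044, limma adjusted p = 0.036), but the call ended without a variance trend (limma adjusted p = 0.076) and when any of 5 libraries was left out. The limma adjusted p was then 0.18 without EV deprived a, 0.14 without EV deprived b, 0.19 without KO deprived b, and 0.071 without EV regular a or EV regular b. In regular medium the difference was -0.05 (limma adjusted p = 0.48). *GPX1*, *GPX4* and *GPX8* thus moved down, little and up with deprivation in EV cells, in the order named.

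*ACSL4*, the synthetase that prefers arachidonic and adrenic acid (Entrez 2182, chromosome X, 109624244 to 109733403, minus strand), fell with deprivation in both lines. Its levels were 109 and 110.2 CPM in EV regular, 102 and 113 in KO regular, 69.4 and 71.8 in EV deprived, and 74.6 and 71.2 in KO deprived cells. The media did not overlap, and the 2 lines overlapped in regular medium and again in deprived medium. The fall was to 0.645 of the regular level in EV cells (log2 -0.63 ± 0.050, limma adjusted p = 7.8e-07) and to 0.678 in KO cells (-0.56 ± 0.050, limma adjusted p = 2.2e-06). The knockout changed it by -0.03 in regular (95% interval -0.14 to 0.08, limma adjusted p = 0.79) and 0.05 in deprived medium (-0.07 to 0.16, limma adjusted p = 0.57).

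*ACSL3*, the synthetase of the endoplasmic reticulum and lipid droplets needed for protection by oleic acid (Entrez 2181, chromosome 2, 222860934 to 222944639, plus strand), went the other way. Its levels were 228 and 221 CPM in EV regular, 184 and 189 in KO regular, 253 and 257 in EV deprived, and 244 and 233 in KO deprived cells. The KO regular libraries were the lowest and overlapped no others. The knockout lowered it in regular medium to 0.830 of the EV level (log2 -0.27 ± 0.036, limma adjusted p = 0.0019). In deprived medium the difference was -0.09 ± 0.036 (limma adjusted p = 0.088), a value that was called without KO deprived a (-0.13, limma adjusted p = 0.038). Deprivation raised it by 0.18 ± 0.036 in EV cells (limma adjusted p = 8.6e-04) and by 0.35 ± 0.036 in KO cells (limma adjusted p = 6.1e-06). The interaction was 0.17 ± 0.050 (limma adjusted p = 0.079), the smallest adjusted p of the 8 members' interactions. None of the 8 interactions was called by limma (0 of 8), where 4.31% of all genes were called, 2.31% higher and 2.01% lower. For 2 members, *ACSL3* and *AIFM2*, the unadjusted limma p fell under 0.05. With precision weights from the reads 0 of 8 were called as well.

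*LPCAT3*, the acyltransferase that inserts polyunsaturated acyl chains into lysophospholipids (Entrez 10162, chromosome 12, 6976186 to 7018510, minus strand), fell together with *ACSL4*. Its levels were 42.2 and 43.7 CPM in EV regular, 46.0 and 43.3 in KO regular, 34.0 and 33.8 in EV deprived, and 34.1 and 32.6 in KO deprived cells. All deprived libraries lay below all regular ones. The fall was -0.34 ± 0.046 in EV cells (limma adjusted p = 5.3e-05) and -0.42 ± 0.046 in KO cells (limma adjusted p = 1.2e-05), while the knockout values were 0.05 and -0.02 in regular and deprived medium (limma adjusted p = 0.51 and 0.77). Of the 4725 bases in annotated *LPCAT3* exons, 3100 (65.6%) also lie in exons of *EMG1* on the other strand, and SMART-Seq libraries of this type do not mark strand. *EMG1*, a ribosome biogenesis factor named here only for that overlap, was at 88.2 ± 2.6 CPM in EV regular and 84.3 ± 3.0 CPM in EV deprived cells (log2 -0.07, limma adjusted p = 0.19), and changed by -0.17 in KO cells (limma adjusted p = 0.0040). How reads in the shared part were counted is not given in the sources used here.

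**Figure D3:**
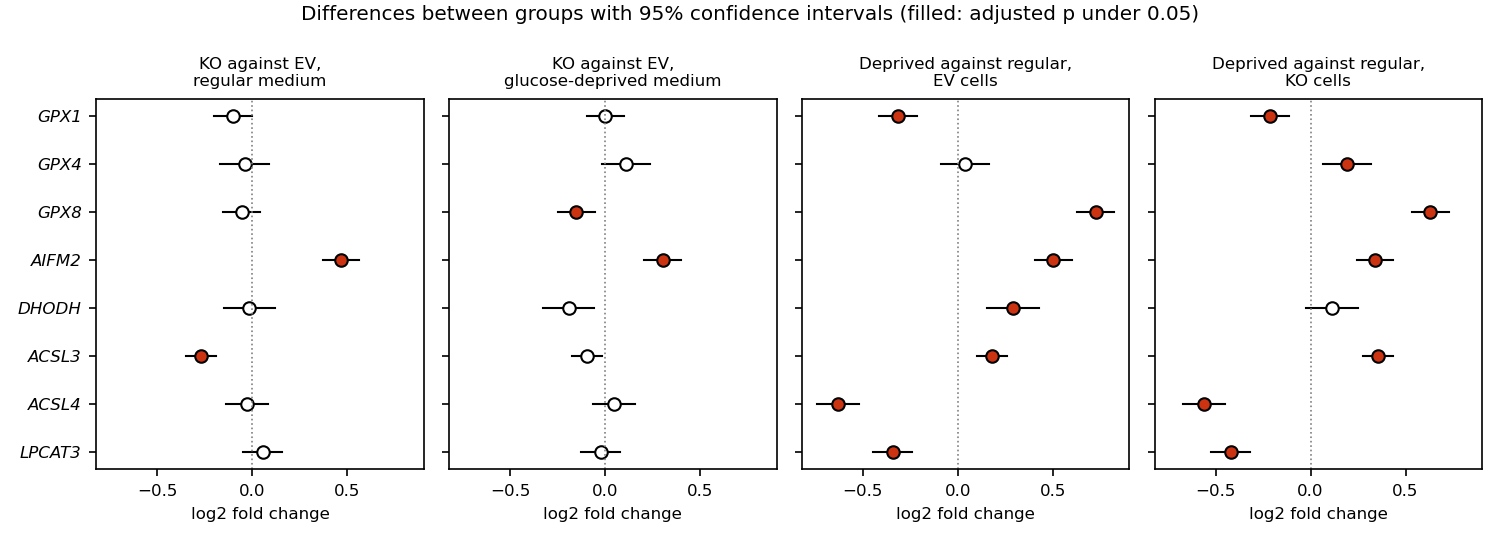
Log2 fold changes (x axis) of the 8 genes (rows) in the 4 comparisons between groups (panels), with 95% confidence intervals from limma; filled points have an adjusted p under 0.05. The knockout panels hold 2 filled points each and the deprivation panels 7 each.

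Set side by side per kilobase of annotated exon, the levels of the members spanned a wide range. In EV regular cells the order was *GPX1* (174 ± 6.6 CPM per kb, SD, n = 2), *GPX4* (54.4 ± 1.9), *ACSL3* (31.1 ± 0.66), *ACSL4* (17.1 ± 0.15), *GPX8* (10.9 ± 0.12), *LPCAT3* (9.10 ± 0.22), *AIFM2* (6.75 ± 0.083) and *DHODH* (1.62 ± 0.053). Each neighbouring pair lay further apart than the SDs of both. The place of *LPCAT3* is uncertain beyond its SD, since 65.6% of its exon bases are shared with *EMG1* and the counting of those reads is not known. In KO deprived cells *GPX8* (16.3 ± 0.88 CPM per kb) and *AIFM2* (11.8 ± 0.036) stood above *ACSL4* (11.4 ± 0.38) and *LPCAT3* (7.06 ± 0.24), and *AIFM2* and *ACSL4* differed by little more than the SD. With the longest transcript as the length, *LPCAT3* passed *GPX8* in EV regular cells and *AIFM2* passed *GPX8* in KO deprived cells, so the order in this part of the range depends on the length used.

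For each member the genes with the most similar pattern were sought by the root mean square difference of log2 values over the 8 libraries, each gene centred on its mean, among 13056 other genes. For *AIFM2* these were *POPDC3* (0.054) and *C9orf43* (0.076), further off than for any other member. The closest were 0.017 and 0.019 for *LPCAT3* (*USP5*, *TAF5L*), 0.022 and 0.023 for *GPX8* (*ENTPD7*, *WDPCP*), 0.025 and 0.029 for *ACSL4* (*SUB1*, *INTS8*), and 0.028 and 0.030 for *GPX1* (*TLE5*, *ZNF584*). For *GPX4* they were *ELL* and *ATG101* (both 0.028), for *ACSL3* *RASSF8* (0.031) and *ITGB8* (0.036), and for *DHODH* *SUN1* (0.035) and *TFAP2C* (0.036). The 8 libraries share 2 media, which most genes follow.

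The rest of the pathway was read from 11 lists by role, with 88 tested genes beside the members. In KO cells 17 of the 88 rose and 1 fell in regular medium (median 0.03 against -0.003 over all genes tested), and 23 rose and 8 fell in deprived medium (0.02 against -0.006). Deprivation raised 40 and lowered 30 in EV cells (0.09 against -0.01) and raised 40 and lowered 24 in KO cells (0.06 against -0.002), and these called shares of 79.5% and 72.7% were near the 76.2% and 73.3% of all genes. For the knockout the called shares were 20.45% in regular and 35.2% in deprived medium, where 7.25% and 19.6% of all genes were called. The counts for single lists stand against these same shares of all genes. Of the 17 rises by knockout in regular medium 10 were called under all 13 alternatives, and of the 23 in deprived medium 12.

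Cystine uptake and glutathione, which feed GPX4, had 6 of 7 genes rising and 0 falling with the knockout in each medium. *SLC7A11*, the cystine carrier, stood at 48.2 and 49.3 CPM in EV regular, 180 and 194 in KO regular, 351 and 364 in EV deprived, and 509.5 and 503 in KO deprived cells, with no overlap between groups. Its knockout log2 difference was 1.94 in regular and 0.50 in deprived medium. *GCLM*, a subunit of the enzyme that makes glutathione's precursor, rose by 0.93 and 0.82, and *GSR*, which reduces glutathione, by 0.67 and 0.62. *CHAC1*, which breaks glutathione down, rose by 3.35 with deprivation in EV cells and 3.34 in KO cells.

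Among 16 other genes of coenzyme Q synthesis and reduction, *NQO1*, a second quinone reductase, had the largest knockout difference, with 107.8 ± 0.14 CPM in EV regular and 263 ± 3.3 CPM in KO regular libraries (log2 1.29, limma adjusted p = 4.2e-09), and 0.82 in deprived medium (1.6e-07). In regular medium 2 of the 16 rose and 0 fell. In deprived medium 2 rose and 2 fell. Deprivation raised 7 and lowered 4 in EV cells and 8 and 5 in KO cells (68.75% and 81.25% called, against 76.2% and 73.3% of all genes). *COQ8A*, a kinase-like protein needed for coenzyme Q synthesis, rose by 0.90 and 0.72, and *STARD7*, which carries coenzyme Q out of mitochondria, fell by 0.65 in EV cells (-0.65) and by 0.56 in KO cells (-0.56).

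Of the other glutathione peroxidases only *GPX3* and *GPX7* were listed. *GPX3*, a selenoprotein usually secreted, rose with the knockout by 0.34 in regular medium and 0.35 in deprived medium. In regular medium the limma adjusted p rose to 0.085 when KO regular a was left out, to 0.090 without EV regular b and to 0.16 without EV regular a, and in deprived medium to 0.064 without EV deprived b. *GPX7*, which like *GPX8* works in the endoplasmic reticulum, rose with deprivation by 0.41 in EV cells and 0.27 in KO cells (limma adjusted p = 1.7e-04 and 0.0030). Both reticulum peroxidases thus rose in both lines. Of 9 genes of selenocysteine supply and insertion 6 rose and 1 fell with deprivation in each line (77.8% called, near the 76.2% and 73.3% of all genes). *SEPHS2*, which makes the selenium donor, rose by 0.68 and 0.75, and *SARS1*, the seryl-tRNA synthetase, by 1.67 and 1.40. *LRP8*, a receptor for the selenium carrier SELENOP, rose with the knockout by 0.43 in regular and 0.30 in deprived medium (limma adjusted p = 1.0e-04 and 4.8e-04).

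Among genes that set the fatty acids of phospholipids, *ACSL1*, the one other long-chain synthetase tested, rose with deprivation by 0.92 in EV cells and 0.82 in KO cells, opposite in sign to *ACSL4*. Of 7 other lysophospholipid acyltransferases 4 fell and 1 rose in EV cells, and 4 fell and 2 rose in KO cells (71.4% and 85.7% called, against 76.2% and 73.3% of all genes). *AGPAT3* changed by -0.70 and -0.61 and *LPCAT4* by -0.67 and -0.78, both in the direction of *LPCAT3*. No gene of this list was called for the knockout in regular medium (0 of 7), and in deprived medium *MBOAT2* rose by 0.22, a call that ended without EV deprived a (limma adjusted p = 0.11). Of 12 desaturases and elongases 7 fell and 3 rose with deprivation in EV cells and 5 fell and 3 rose in KO cells (83.3% and 66.7% called, again near the shares of all genes). *ELOVL2*, an elongase of polyunsaturated acids, changed by -1.01 and -0.81, and *ELOVL1*, of saturated and monounsaturated very long chains, by -0.60 and -0.88. *SCD*, which makes oleic acid, rose with deprivation by 0.22 and 0.24 (limma adjusted p = 2.6e-04 and 1.3e-04). With the knockout *SCD* changed by -0.16 in regular and -0.13 in deprived medium (limma adjusted p = 0.030 and 0.032), calls that ended in the first case without any 1 of 6 libraries (adjusted p up to 0.22) and in the second without any 1 of 5 (up to 0.23).

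Of 5 genes of ether lipid synthesis, another source of oxidisable lipid, 4 fell and 1 rose with deprivation in EV cells and 2 fell in KO cells. The called shares were 100% and 40%, against 76.2% and 73.3% of all genes. None of the 5 interactions was called (0 of 5, against 4.31% of all genes), so a difference between the lines was not established. *AGPS*, a peroxisomal enzyme of this route, changed by -0.49 and -0.25. Of 6 tested genes of lipid oxidation and its control, *PLA2G6*, a phospholipase that releases oxidised chains, rose by 2.15 and 2.22, and *PEBP1*, a partner of lipoxygenases, changed by -0.22 and -0.23. Of the 6 lipoxygenases sought, 2 were in the table, of which *ALOXE3*, a low-level gene, rose with the knockout in deprived medium (0.88), a call that ended without EV deprived b (limma adjusted p = 0.092). In the tetrahydrobiopterin and vitamin K list, *GCH1*, the first enzyme of tetrahydrobiopterin synthesis, rose by 0.74 and 0.76 and *SPR*, a later one, changed by -0.73 and -0.44 with deprivation. With the knockout 1 of the 8 rose in regular medium, and 2 rose and 1 fell in deprived medium. The called shares were 12.5% and 37.5%, against 7.25% and 19.6% of all genes. *GCH1* rose by 0.31 and 0.33 (limma adjusted p = 0.035 and 0.013), and *SPR* by 0.37 in deprived medium (0.0039). The call in regular medium did not hold under all 13 alternatives, and of the 2 rises in deprived medium 1 did. Of 15 iron genes 8 rose and 3 fell with deprivation in each line (73.3% called, near the share of all genes). *TFRC*, the transferrin receptor, changed by -1.59 and -1.43 and *HMOX1*, which frees iron from heme, rose by 4.81 and 4.78. With the knockout *HMOX1* rose by 2.10 in regular and 2.07 in deprived medium (limma adjusted p = 4.0e-09 and 3.0e-09). *FTL*, a ferritin chain, rose with the knockout by 1.06 and 0.72, a value made uncertain by the many ferritin pseudogenes that could share reads.

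**Figure D4:**
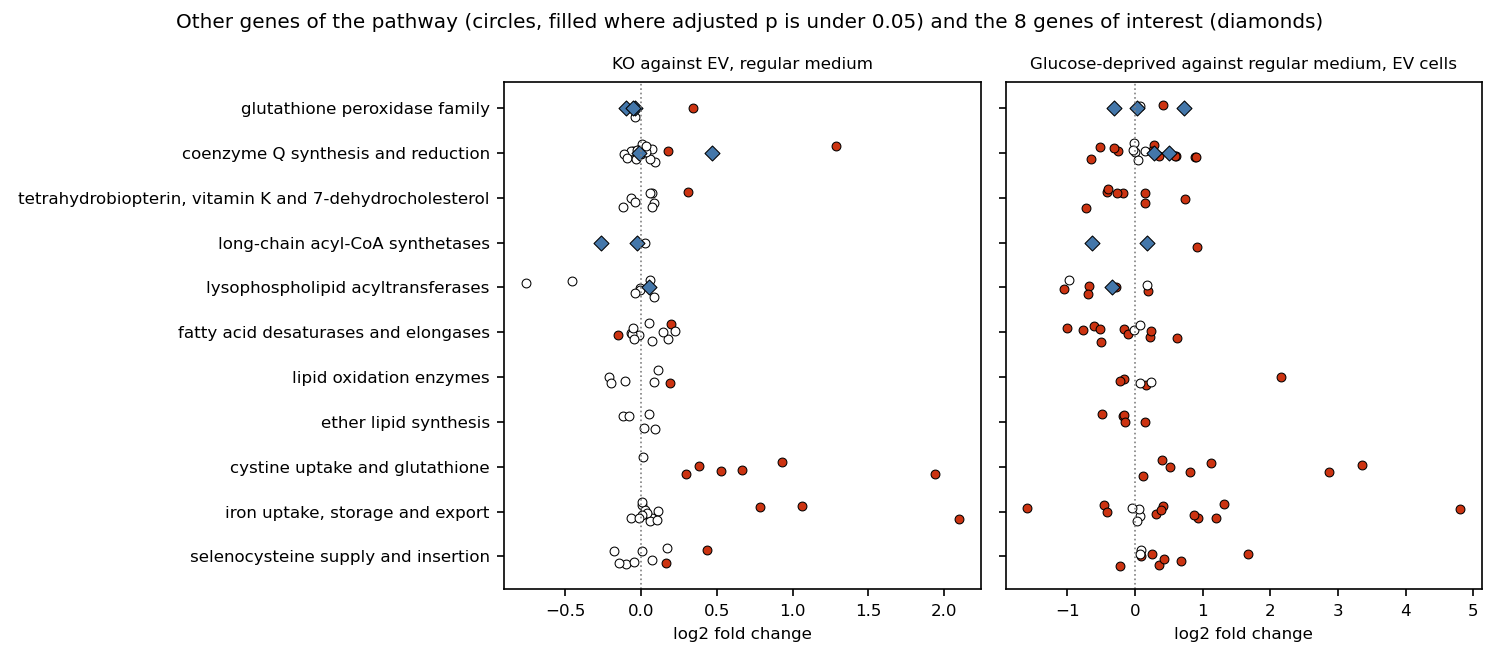
Log2 fold changes (x axis) of the other pathway genes by list (rows), for the knockout in regular medium (left) and for glucose deprivation in EV cells (right). Circles are single genes, filled at an adjusted p under 0.05, and diamonds are the 8 members. AIFM2, at 0.47, and NQO1, at 1.29, stand to the right in the coenzyme Q row of the left panel.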

How the data were processed

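RNA-seq libraries were made from 4 groups with 2 libraries each. Per the labels' protocols, TRIzol was used to extract RNA, and SMART-Seq mRNA HT and Nextera XT kits for the libraries. HISAT2, the edgeR package and the build GRCh38 are named, per the submitters' processing notes. Versions, counting tool, annotation and gene filter are not given in the sources used here. The values the authors deposited are log2 CPM, a scale read from the values: less an offset of 0.023 CPM, 100% of genes fell on whole reads within a tolerance of 0.05. CPM printed here has the offset removed. A single read (1) equals 0.0095 to 0.0143 CPM.

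Columns carry the group and no replicate number, so a and b are only names. Columns headed GlcN were read as the glucose-deprived medium, though the letters are also used for glucosamine; the labels name no other second medium. Whether the 2 libraries of a group are separate cultures is not stated, so the spread behind each p-value is that of 2 libraries a group and may be technical.

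The deposited log2 CPM of 13057 genes with a mean of at least 0 were fitted with limma 3.58.1 (R 4.3.3) over all 4 groups with a variance trend (4 residual and 6.29 prior degrees of freedom), with 5 contrasts and two-sided p-values adjusted by Benjamini-Hochberg over all genes tested. Fold changes are on this log2 scale with its offset. The fit was also run on simulated reads with known changes in KO regular libraries alone, read out for the knockout in regular medium. That run did not cover the other contrasts, and no result here rests on it. Positions, exon lengths and coding sequences are from GENCODE 29 (GRCh38), and promoters from RefSeq. The named genes are the members, *TXNRD1*, *TXNIP*, up to 2 called genes of each list and contrast by smallest adjusted p, and the 2 nearest patterns per member; *EMG1* was added for its overlap. The members, lists and motifs were chosen with earlier results of these data known. Alternatives were another pseudocount (1), no filter, median-of-ratios scaling, no variance trend, read-based weights, each library left out, and the longest transcript as length. Some genes of the lists are not reported here.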

Additional observations from a re-analysis of the deposited data

Results flagged for a closer look

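For none of the 8 members (0 of 8) did limma call the effect of the knockout to differ between the media, so the values here are of other genes, whose interaction term was called. Of all genes tested, 2.31% had a called interaction above 0 and 2.01% one below 0. In the pathway lists 7 of 88 genes were called, and *TXNRD1* besides, each below 0, meaning a lower log2 difference between KO and EV in deprived than in regular medium. *SLC7A11* had an interaction of -1.44, *NQO1* of -0.47, *TXNRD1* of -0.39 and *FTL* of -0.34, each called under all 13 alternatives. For *SLC7A11*, *NQO1* and *FTL* KO stood above EV in both media, and for *TXNRD1* the fall was called in deprived medium. *ELOVL1* had -0.28 (called in 8 of 13 alternatives), *SARS1*, which charges the selenocysteine tRNA with serine, -0.27 (8 of 13) and *STEAP3*, a ferrireductase, -0.27 (7 of 13). *FTH1*, the other ferritin chain, had -0.21 (7 of 13) and is named after its value was seen, since it completes the count. With 2 libraries a group, no test of single outlying libraries was made.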

How the results depend on the processing

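The 5 contrasts were refitted under 13 alternatives, of which limma voom on the recovered reads was chosen after seeing the data. Tests with edgeR or DESeq2 were not run, since the deposited unit is log2 CPM. No paired analysis was possible because the columns carry no replicate numbers. Of 520 member values, 498 kept their direction and side of the threshold, 8 lost a call, 5 gained one and 9 changed sign, none of these 9 from a called value. Without a variance trend 433 genes were called for the knockout in regular medium and 223 for the interaction, and 0 members were lower in KO cells in deprived medium, against 2 with voom. Leaving out 1 library gave 168 to 1414 genes called for the knockout in regular medium (lowest without EV regular a, highest without KO deprived b), 852 to 3058 in deprived medium (without EV deprived b and KO regular a) and 147 to 1579 for the interaction (without EV regular a and KO deprived a). In deprived medium 1 to 2 members were then higher in KO cells and 0 to 2 lower. The log2 values that changed sign without 1 library ranged, for the knockout in regular medium, from -0.085 to 0.0027 for *GPX4*, -0.051 to 0.020 for *DHODH* and -0.10 to 0.046 for *ACSL4*, and in deprived medium from -0.031 to 0.033 for *GPX1* and -0.057 to 0.011 for *LPCAT3*. For deprivation in EV cells *GPX4* ranged from -0.0052 to 0.082, and the interaction of *ACSL4* from -0.0015 to 0.15. With the longest transcript as length the EV regular levels were, in CPM per kb, 216 for *GPX1*, 92.7 for *GPX4*, 39.6 for *ACSL3*, 20.53 for *ACSL4*, 14.8 for *LPCAT3*, 12.3 for *GPX8*, 10.7 for *AIFM2* and 2.33 for *DHODH*.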
